A study of Mus musculus with 4 samples.

Results

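The nuclear-encoded genes of the respiratory chain were followed in mouse Hoxb8 cells with and without the leukaemia-associated substitution DNMT3A R882H. They were taken as the protein-coding genes whose symbol starts with Nduf, Uqcr, Atp5 or Cox and a digit, together with the succinate dehydrogenase subunits and their assembly factors, Cyc1, Cycs, Sco1, Sco2 and Surf1. Of 125 symbols that fit these names, 14 were not protein-coding genes and 5 held fewer than 20 counts over all libraries, which left 106 genes of the 52636 gene lines in the table. Just inside that minimum lay Cox6b2 with 22 counts, and just outside it Cox6a2 with 3, while Cox4i2, Cox7b2, Cox8b and Cox8c held 0 counts in every library. Of the 106 genes, 105 had enough counts to be tested, Cox6b2 being the exception.

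Hoxb8 cells take their name from a homeobox gene whose forced expression keeps myeloid progenitors dividing in culture. One group carried an empty vector (EV, 2 libraries) and the other expressed DNMT3A R882H, a substitution in a de novo DNA methyltransferase that recurs in acute myeloid leukaemia (R882H, 2 libraries). No further allele, agent or treatment is named for either group, and nothing in the labels says that the libraries of a group came from separate cultures, so each p-value reflects no more than the scatter of these libraries, which may be technical. RNA was measured by 3′ tag sequencing, in which reads come from the end of each transcript and counts need no correction for transcript length.

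The respiratory chain sits in the inner mitochondrial membrane. Complexes I and II pass electrons from NADH and succinate to ubiquinone, complex III passes them to cytochrome c, and complex IV passes them to oxygen. The proton gradient that complexes I, III and IV build is spent by complex V, the ATP synthase. Most subunits are encoded in the nucleus, a few in mitochondrial DNA, and the complexes need cofactors that are inserted during assembly: flavin, iron-sulphur clusters, heme and copper. Progenitor and leukaemia cells of the myeloid lineage are known to depend on mitochondrial respiration, and the series is about heme synthesis and copper-dependent death in acute myeloid leukaemia.

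Dnmt3a, the gene of the substituted enzyme, held 264, 270, 254 and 239 counts in EV replicates 1 and 2 and then R882H, with no call, but a transgene without the native 3′ end would not be counted, so this does not check the labels. The libraries held 5470330 to 5921985 counts each, and log2 normalised counts correlated across genes with Pearson r = 0.986 within EV and 0.988 within R882H, against 0.900 to 0.908 between groups. Of the markers of other cell types, the 6 B cell genes summed to 223 to 238 counts-per-million (CPM) in EV and 739 to 797 in R882H, and 5 of the 5 that were tested rose, with Pax5 at 0 counts in both EV libraries. The 6 granulocyte genes summed to 1144 to 1298 and 2798 to 2849 CPM, the 5 basophil or mast cell genes to 91.0 to 95.1 and 365 to 380, and the 4 megakaryocyte genes to 850 to 1040 and 21.8 to 26.1. Members of a list did not move alike: Mpo rose from 30.4 and 34.9 CPM to 1213 and 1270 while Prtn3 was not called (log2 fold change −0.04), Cpa3 rose while Gata2 fell by 0.86, and Pf4 fell from 1033 and 844 CPM to 15.1 and 10.5 while Itga2b rose by 1.35. The 8 myeloid progenitor genes summed to 2518 to 2630 CPM in EV and 2963 to 3030 in R882H, but moved both ways. Kit, Flt3 and Myb rose (log2 fold changes 1.55, 0.65 and 0.37). Csf2rb and Hoxb8 fell (−0.92 and −1.92), while Cd34, Spi1 and Csf1r were not called. Hoxb8 itself held only 25 and 44 counts in EV and 15 and 4 in R882H. The 4 fibroblast genes were at 0 counts in all libraries, the 4 T cell genes summed to at most 0.527 CPM and the 6 erythroid genes to at most 2.75, with Epor and Hba-a1 at 0. The Y-linked gene Ddx3y held 0 and 2 counts in EV and 65 and 41 in R882H, and Xist held 1438 to 1880 in all libraries, so a difference in the origin of the cells cannot be told apart from the vector. In such bulk samples fewer cells of a type and less RNA per cell cannot be told apart, and the part these differences play in the results below was not tested.

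The words rose, fell and called are kept for genes where edgeR's quasi-likelihood test gave an adjusted p under 0.05, adjusted by Benjamini and Hochberg's method across the 11444 tested genes. Log2 fold changes are R882H over EV, with a standard error. Levels are CPM on library sizes scaled by the TMM method and are given as EV replicate 1, EV replicate 2, R882H replicate 1 and R882H replicate 2, in that order, and as means ± SD with n = 2 per group. They are per transcript 3′ end and not divided by length.

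The respiratory chain genes were split between rises and falls. Of the 105 tested, 17 rose, 18 fell and 70 were not called, so 33.3% were called. Over all tested genes 38.8% were called, 19.3% higher and 19.4% lower, so the share among respiratory chain genes was near the background. Their median log2 fold change was 0.01, as was that of all tested genes, and their interquartile range was −0.20 to 0.21, against −0.35 to 0.38 over all tested genes. Both R882H libraries lay above both EV libraries for 29 of the 105 and below for 32. The same arrangement held for 35.2% and 33.9% of all tested genes. The 106 genes together made up 2.52% and 2.21% of counts in EV and 2.31% and 2.34% in R882H, so the groups overlapped.

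By complex, the calls went in both directions in complexes I, III, IV and V. In complex II there were 2 rises and 0 falls among 8 genes. That is 25% called, against 38.8% of all tested genes, 19.3% higher and 19.4% lower. The count of falls in complex II was also 0 at an unadjusted p under 0.05 and with DESeq2. Sdhb, 1 of the 2 rises, lost its call without R882H replicate 2. No test set these counts against the background. The plot of log2 fold changes by complex shows the classes side by side. Summed CPM of complex V subunits were 8007 and 7484 in EV and 6716 and 7173 in R882H, and those of complex II subunits were 857 and 835 in EV and 960 and 987 in R882H. For complex IV subunits the sums were 5493, 4619, 5615 and 5830, for complex I subunits 6514, 5288, 5874 and 6093, and for complex III 2465, 2081, 2068 and 2092. The R882H sums lay above both EV sums for complex II and complex IV subunits and below both for complex V, and the groups overlapped for complexes I and III. In complexes IV and V the nearest libraries of the groups differed by less than the EV libraries did. No test was run on the sums.

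**Figure D1:**
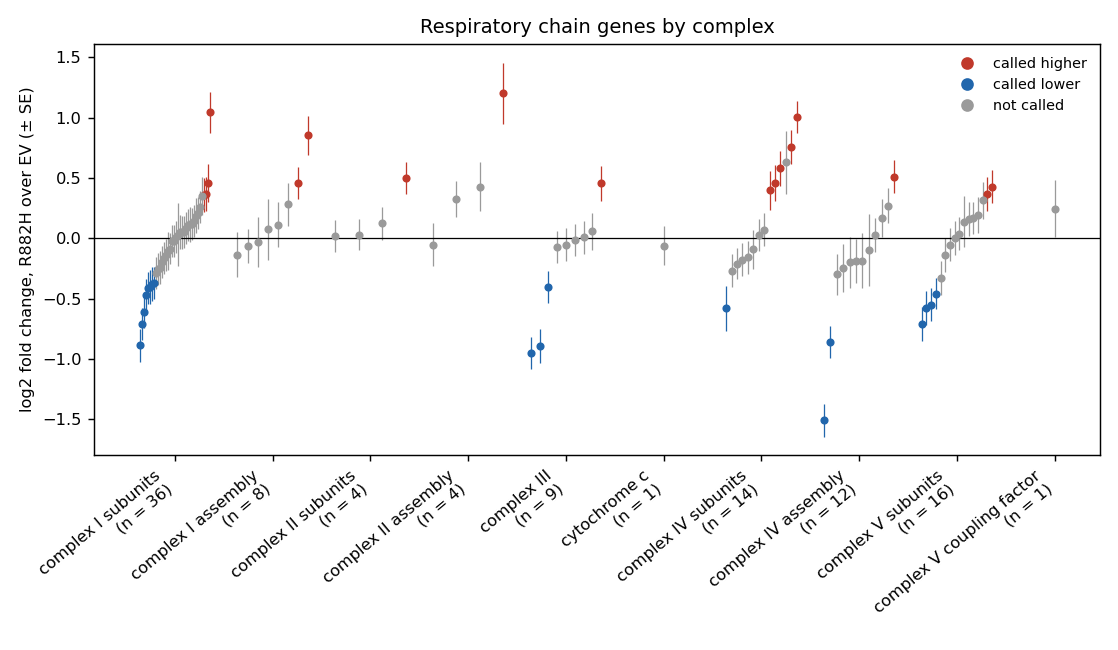
Log2 fold change (R882H over EV, y axis, with bars of 1 standard error) of each of the 105 tested respiratory chain genes by class (x axis), with red points for genes called higher, blue for lower and grey for not called. Red and blue points both stand in complexes I, III, IV and V, the lowest point is Cox15 at −1.51 and the highest is Sdhaf3 at 1.20.

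A change of at least 1.5-fold was called upwards for 5 genes (Sdhaf3, Ndufa6, Ndufa4, Ndufaf8 and Cox7a2l) and downwards for 8 (Cox15, Cyc1, Uqcrc1, Ndufb7, Cox10, Atp5g3, Ndufa10 and Ndufs8). Over all tested genes 13.8% rose and 12.8% fell by that much. These 13 were also the ones, of the 35 called, that stayed called in every refit in which they were present: other scalings, filters and tools, a replicate block, offsets by transcript length, and each library left out in turn. The other 22 lost their call in at least 1 of these refits, and the libraries without which it was lost are named with each group below. Leaving out a library also removed calls over all tested genes, of which 12.8% were higher and 12.3% lower without R882H replicate 1 and 14% and 12.8% without R882H replicate 2, so a lost call alone does not mean a smaller change. With DESeq2, calls were lost for Atp5mpl, Cox7b, Ndufa1, Ndufb3 and Ndufc2 among the rises and for Ndufa13, Ndufa3, Ndufa4l2 and Ndufa9 among the falls. DESeq2 called fewer genes throughout, 10.1% of its tested genes higher and 11% lower. The calls of Cox7b and Ndufb3 were also lost with DESeq2's size factors, non-robust dispersion, a filter of 10 counts in all libraries of either group, or genes free of exon overlap.

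The promoters of several of these genes carry letters bound by regulators of nuclear mitochondrial genes, namely nuclear respiratory factor 1 (NRF1), the ETS factor GABP and YY1. Promoter windows of 300 bases (250 before to 50 after the start) were available from RefSeq, build GRCm38.p6, for 87 of the 106 genes. The letters searched, on both strands, were GCGCATGC for NRF1, CCGGAAGT for ETS factors and AAGATGGC for YY1, and these 3 motifs do not contain each other. At least 1 of them stood in 32 of 87 windows (36.8%), against 20.9% of 8578 tested genes and 9.91% of all 27025 genes with a window of this length. The NRF1 letters stood in 13 windows (14.9%, against 6.45% of tested and 3.05% of all genes), the ETS letters in 9 (10.3%, against 10.2% and 4.31%) and the YY1 letters in 12 (13.8%, against 5.90% and 3.19%). By call, 5 of 14 genes that rose, 6 of 15 that fell and 21 of 57 that were not called carried at least 1 of the 3, and no test was run on these shares. The stretches below are shown because they put the same letters next to genes that rose and genes that fell; most carriers of each motif (9 of 13 for NRF1, 5 of 9 for ETS and 8 of 12 for YY1) were not called, and of these only Cycs is shown. Capitals mark the motif as found on either strand, and a match is a description and not a binding site.

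The NRF1 letters stood in the windows of Ndufa6 and Sdhb, which rose, Ndufa11 and Uqcrc1, which fell, and Cycs, which was not called. Positions on GRCm38.p6 are chr15:82354343-82354398 on the minus strand for Ndufa6, chr4:140961193-140961248 on the plus strand for Sdhb, chr17:56717678-56717733 on the plus strand for Ndufa11, chr9:108936667-108936696 on the plus strand for Uqcrc1 and chr6:50566598-50566653 on the minus strand for Cycs.
Ndufa6: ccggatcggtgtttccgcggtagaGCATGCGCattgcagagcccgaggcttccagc
Sdhb: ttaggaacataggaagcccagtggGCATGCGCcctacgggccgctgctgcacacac
Ndufa11: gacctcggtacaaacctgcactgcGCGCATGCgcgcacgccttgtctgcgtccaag
Uqcrc1: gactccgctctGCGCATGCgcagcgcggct
Cycs: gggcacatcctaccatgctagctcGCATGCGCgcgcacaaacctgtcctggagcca

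The ETS letters stood in the windows of both heme A enzymes, Cox15 and Cox10, which fell, and of Uqcrh and Cox14, which rose. They lie at chr19:43752975-43753004 on the minus strand for Cox15, chr11:64079481-64079510 on the minus strand for Cox10, chr4:116075063-116075092 on the minus strand for Uqcrh and chr15:99725641-99725667 on the plus strand for Cox14. Of the 10 complex IV assembly genes with a window, 4 carried these letters.
Cox15: cgacgcctgacCCGGAAGTgcttgttcttt
Cox10: agcgctgggagCCGGAAGTgacaagaggaa
Uqcrh: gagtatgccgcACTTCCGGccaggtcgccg
Cox14: agaggtagaagCCGGAAGTtcaaggct

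The YY1 letters contain ATG and lay on the strand of the gene in 12 of 12 windows of respiratory chain genes, with 10 of them after the start, against 70.4% on the gene's strand and 47.2% also after the start among the 506 tested genes that carry them. Examples are Cox10, Ndufa3 and Ndufa9, which fell, and Ndufaf8, which rose, at chr11:64079433-64079462 (minus), chr7:3617384-3617413 (plus), chr6:126849097-126849126 (minus) and chr11:120098933-120098962 (plus).
Cox10: ggcgggctagcAAGATGGCggcgcccagga
Ndufa3: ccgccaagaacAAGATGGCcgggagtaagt
Ndufa9: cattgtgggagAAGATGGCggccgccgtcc
Ndufaf8: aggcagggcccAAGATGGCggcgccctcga

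Complex I, the entry point for electrons from NADH, had 4 rises and 8 falls among its 36 tested subunits, with a median log2 fold change of −0.00. Of these subunits 33.3% were called, against 38.8% of all tested genes. The balance turned with the EV library used, with 10 rises and 6 falls without EV replicate 1 and 1 rise and 11 falls without EV replicate 2, and leaving out R882H replicate 1 gave 1 and 3, leaving out R882H replicate 2 gave 2 and 4, and DESeq2 gave 1 and 5. Of the 7 core subunits, which carry the flavin and the iron-sulphur clusters, only Ndufs8 was called. Ndufs8 (chr19:3908863-3912774), an iron-sulphur subunit on the electron path to ubiquinone, stood at 110, 110, 77.0 and 66.9 CPM. It fell by 0.61 ± 0.13 on the log2 scale (adjusted p = 0.000387, edgeR), and both R882H libraries lay below both EV libraries. The other 6 core subunits had log2 fold changes between −0.16 and 0.05.

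The accessory subunits of complex I moved both ways, with 4 of 29 higher and 7 lower. Calls made up 37.9% of them, against 38.8% of all tested genes. Ndufb7 (chr8:83566671-83571626), an accessory subunit of the membrane arm, stood at 104, 104, 58.9 and 53.7 CPM and fell by 0.89 ± 0.13 on the log2 scale (adjusted p = 1.88e-06), that is 1.85-fold. Its EV libraries were level and its R882H libraries were both low. Ndufa10 (chr1:92439010-92473860), also in the membrane arm, stood at 163, 143, 94.5 and 93.0 CPM and fell by 0.71 ± 0.13 (adjusted p = 5.65e-05).

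Ndufa6 (chr15:82350140-82354322), a small accessory protein of the LYR family at the matrix arm, had the largest fold change among complex I genes. It stood at 211, 125, 347 and 345 CPM and rose 2.06-fold, with a log2 fold change of 1.04 ± 0.17 (adjusted p = 3.86e-05). The R882H libraries were level and both above EV, while the EV libraries differed from each other, so that leaving out EV replicate 1 gave 1.47 and leaving out EV replicate 2 gave 0.71.

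The other complex I subunits changed less. Ndufa11 stood at 140, 136, 94.5 and 104 CPM and fell by 0.47 ± 0.13 (adjusted p = 0.00431). Ndufv3, a small subunit of the NADH-oxidising module, stood at 213, 188, 154 and 147 CPM and fell by 0.41 ± 0.13 (adjusted p = 0.0121). In both, R882H lay below EV throughout, and both lost the call without R882H replicate 1, at adjusted p = 0.145 and 0.102, Ndufv3 also without R882H replicate 2 (0.169).

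Ndufa13, Ndufa3 and Ndufa9 fell by 0.40 ± 0.14, 0.38 ± 0.14 and 0.37 ± 0.14 (adjusted p = 0.0228, 0.0304 and 0.0295). Ndufa13 stood at 222, 168, 137 and 158 CPM and Ndufa3 at 239, 178, 151 and 169 CPM, and in both the EV libraries differed by more than the lower EV library and the higher R882H library did. Ndufa9, an accessory subunit near the site of ubiquinone reduction, stood at 73.0, 73.4, 60.6 and 52.7 CPM. None of these 3 stayed called without R882H replicate 1 or without R882H replicate 2; Ndufa13 and Ndufa3 also lost it without EV replicate 1, and Ndufa9 without EV replicate 2.

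Ndufc2, Ndufa1 and Ndufb3, small membrane-arm subunits, rose by 0.46 ± 0.15, 0.36 ± 0.14 and 0.36 ± 0.14 on the log2 scale (adjusted p = 0.0196, 0.0376 and 0.0463). Ndufc2 stood at 278, 178, 326 and 301 CPM. The X-linked Ndufa1 stood at 135, 101, 145 and 159 CPM, and Ndufb3, the complex I subunit with the most CPM, at 500, 376, 528 and 596. In all 3, EV replicate 2 was the lowest library. Without EV replicate 2 their log2 fold changes were 0.17, 0.16 and 0.16 and none was called, and none was called without R882H replicate 1; without R882H replicate 2 Ndufa1 and Ndufb3 lost it too. The 24 complex I subunits that were not called ranged from −0.29 (Ndufb10) to 0.35 (Ndufs5).

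Ndufa11, Ndufa3 and Ndufa9 share exon sequence with other genes, Vmac, Tfpt and 1700018A23Rik, and reads of such pairs may be shared where exons overlap. Tfpt and 1700018A23Rik also fell, by 0.64 ± 0.26 and 0.79 ± 0.22 on the log2 scale, while Vmac had a log2 fold change of 0.55 ± 0.32 and was not called. Ndufb1-ps, which the annotation lists as a non-coding RNA and which is therefore outside the 106 genes, held 1066, 756, 1310 and 1334 counts. It rose by 0.46 ± 0.15 (adjusted p = 0.0115, edgeR).

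Of the 8 complex I assembly factors, 2 rose and 0 fell, nor did any fall at an unadjusted p under 0.05 or with DESeq2. That is 25% called, against 38.8% of all tested genes. Ndufaf8 (chr11:120098928-120100705), a partner of the assembly enzyme Ndufaf5, stood at 190.0, 127, 247 and 326 CPM and rose 1.81-fold (log2 0.85 ± 0.16, adjusted p = 0.000109). The groups did not overlap, although the libraries of each group were far apart, and the log2 fold change ranged from 0.59 to 1.17 as libraries were left out. Ndufaf3, which acts early in the assembly of the ubiquinone-binding module, stood at 175, 178, 229 and 256 CPM and rose by 0.46 ± 0.13 (adjusted p = 0.00571). It shares exon sequence with Impdh2, which rose by 0.62 ± 0.13, and its call was lost without R882H replicate 2 (adjusted p = 0.129). The other 6 ranged from −0.13 (Ndufaf2) to 0.28 (Ndufaf7).

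Complex II, succinate dehydrogenase, had 1 called subunit of 4. Sdhb (chr4:140961203-140979193), the iron-sulphur subunit, stood at 262, 255, 354 and 376 CPM and rose 1.41-fold (log2 0.50 ± 0.13, adjusted p = 0.00263). Both R882H libraries were above both EV libraries, and without R882H replicate 2 the log2 value was 0.47 and the call was lost (adjusted p = 0.0621). The flavin subunit Sdha was nearly level, at 235, 241, 243 and 243 CPM, with a log2 fold change of 0.03 ± 0.13 (adjusted p = 0.878).

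The membrane anchors that hold the heme, Sdhc and Sdhd, stood at 161, 145, 178 and 155 CPM and at 199, 194, 185 and 213 CPM. Their log2 fold changes were 0.12 ± 0.13 and 0.02 ± 0.13, neither was called, and the groups overlapped. Among the assembly factors, Sdhaf3 (chr6:6956004-7042979), a LYR protein that acts in the maturation of Sdhb, had the largest rise of all respiratory chain genes. It stood at 6.05, 5.65, 12.5 and 14.4 CPM, from 33, 32, 75 and 82 counts, and rose 2.30-fold (log2 1.20 ± 0.25, adjusted p = 0.000289).

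The other complex II assembly factors were not called. Sdhaf2, which attaches the flavin to Sdha, had a log2 fold change of 0.33 ± 0.15 (adjusted p = 0.0771) and shares exon sequence with Cpsf7, which rose by 0.50 ± 0.15. Sdhaf4 was at 0.43 (adjusted p = 0.0938) and Sdhaf1 at −0.05.

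Complex III, the cytochrome bc1 complex, had 1 rise and 3 falls among 9 genes, or 44.4% called against 38.8% of all tested genes. Cyc1 (chr15:76343523-76346260), the heme-carrying cytochrome c1, stood at 157, 160, 76.5 and 87.9 CPM and fell by 0.95 ± 0.13 on the log2 scale (adjusted p = 5.82e-07), that is 1.93-fold. Uqcrc1 (chr9:108936633-108949623), a core protein on the matrix side, stood at 261, 332, 152 and 167 CPM and fell by 0.89 ± 0.14 (adjusted p = 3.31e-06). In both genes the EV libraries were well above the R882H libraries. The paired core protein Uqcrc2 and the iron-sulphur protein Uqcrfs1 were not called, at 0.01 and −0.07.

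The small subunits of complex III included 1 fall and 1 rise. Uqcrq, which contacts cytochrome b, stood at 446, 373, 301 and 319 CPM and fell by 0.40 ± 0.13 (adjusted p = 0.0174), and its call was lost without EV replicate 1, R882H replicate 1 or R882H replicate 2. Uqcrh, the hinge protein near cytochrome c1, stood at 410.0, 292, 498 and 465 CPM and rose by 0.46 ± 0.14 (adjusted p = 0.0121). EV replicate 2 was the lowest of its libraries, and without it the log2 value was 0.23 and the call was lost, as it was without R882H replicate 1. The 5 genes not called lay between −0.07 and 0.06.

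Cycs, which encodes the cytochrome c that carries electrons from complex III to complex IV, stood at 106, 64.8, 81.3 and 82.5 CPM. Its log2 fold change was −0.06 ± 0.16 (adjusted p = 0.796), with both R882H libraries between the EV libraries. The direction turned with the EV library used, at −0.38 (adjusted p = 0.0290) without EV replicate 2 and 0.33 (adjusted p = 0.0659) without EV replicate 1.

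Complex IV, cytochrome c oxidase, had 5 rises and 1 fall among 14 tested subunits. The share called was 42.9%, against 38.8% of all tested genes, 19.3% higher and 19.4% lower. With offsets by transcript length there were 4 rises and 5 falls. Rises outnumbered falls by less without EV replicate 2 or without R882H replicate 2. Among genes free of exon overlap there were 2 rises and 0 falls. Ndufa4 (chr6:11900292-11907497), named as a complex I subunit but found with complex IV, stood at 132, 124, 248 and 265 CPM and doubled (log2 1.003 ± 0.13, adjusted p = 1.66e-07). Its value ranged from 0.95 to 1.06 as libraries were left out. Its paralog Ndufa4l2, known as a gene induced in low oxygen, stood at 22.9, 32.7, 17.9 and 19.3 CPM and fell by 0.58 ± 0.19 (adjusted p = 0.0130). The groups of both genes did not overlap. Ndufa4l2 shares exon sequence with Shmt2, which had far more counts (1544, 2076, 1254 and 1352) and fell by 0.54 ± 0.14, and the call was lost without EV replicate 2 or without R882H replicate 1.

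Cox7a2l (chr17:83501918-83517330), a relative of subunit 7a that joins complexes III and IV into supercomplexes, stood at 245, 193, 381 and 359 CPM and rose 1.69-fold (log2 0.76 ± 0.14, adjusted p = 3.80e-05). The subunit 7a forms themselves were not called. Cox7a2, the form of most tissues, stood at 602, 491, 486 and 482 CPM (log2 fold change −0.18 ± 0.14), and Cox7a1, the form of heart and muscle, at 8.44, 6.71, 14.1 and 9.30 CPM (0.63 ± 0.26, adjusted p = 0.0543). Cox7a1 passed the threshold without the filter on low counts (adjusted p = 0.0497) and without R882H replicate 2 (0.0165), and Cox7a2 passed it as lower without EV replicate 2 (0.0431).

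Cox6c, Cox4i1 and Cox7b, subunits around the catalytic core, rose by 0.58 ± 0.15, 0.46 ± 0.15 and 0.40 ± 0.16 on the log2 scale (adjusted p = 0.00182, 0.0136 and 0.0483). Cox6c stood at 703, 539, 877 and 977 CPM, Cox4i1 at 592, 417, 668 and 719 CPM and the X-linked Cox7b at 408, 253, 442 and 428 CPM. EV replicate 2 was the lowest library in each. Without it Cox4i1 (0.22) and Cox7b (0.09) lost their calls, and all 3 lost them without R882H replicate 2; Cox7b also lost it without R882H replicate 1. Cox6c shares exon sequence with Vps13b and Cox4i1 with Emc8, neither of which was called.

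The remaining paralog pairs of complex IV were made up almost wholly of the forms found in most tissues. Cox6a1 stood at 660, 627, 637 and 715 CPM, Cox6b1 at 438, 386, 330.0 and 355 CPM and Cox8a at 770.0, 708, 675 and 651 CPM, with log2 fold changes of 0.07 ± 0.14, −0.27 ± 0.13 and −0.16 ± 0.14 and no call. Cox6b1 passed the threshold as lower without EV replicate 2 (adjusted p = 0.0264). Cox6b2, known from testis, held 0, 2, 6 and 14 counts. The ratio of its normalised counts, R882H over EV, was 9.52, with an exact 95% interval of 2.31 to 84.0 that covers counting error only.

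Among the 12 assembly factors of complex IV, the enzymes that make heme A stood out by the size of their falls. Cox15 (chr19:43733254-43753000), heme A synthase, stood at 151, 155, 49.7 and 58.3 CPM, or 153 ± 2.73 in EV and 54.0 ± 6.07 in R882H. It fell by 1.51 ± 0.14 on the log2 scale (adjusted p = 4.91e-11), that is 2.84-fold, with a range of −1.61 to −1.38 as libraries were left out. Both R882H libraries were far below both EV libraries. It shares exon sequence with Cutc and Entpd7, which held 124, 146, 180 and 159 counts and 147, 151, 119 and 113 counts, fewer than Cox15 in every EV library. Entpd7 was itself called lower (log2 −0.43 ± 0.17, adjusted p = 0.0478) and Cutc was not called.

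Cox10 (chr11:63962627-64079468), heme O synthase, which acts a step before Cox15, stood at 180, 211, 102 and 114 CPM and fell by 0.86 ± 0.13 (adjusted p = 4.18e-06). The groups did not overlap, and its overlapping neighbour 9630013K17Rik held 25, 34, 10 and 10 counts and fell by 1.62 ± 0.41 (adjusted p = 0.00214). Cox14, which acts in the assembly of mitochondrially encoded Cox1, stood at 109, 92.8, 132 and 156 CPM and rose by 0.51 ± 0.14 (adjusted p = 0.00296). Its call was lost without R882H replicate 2 (adjusted p = 0.108).

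The factors that deliver copper to complex IV were not called. Cox17, the copper chaperone of the intermembrane space, stood at 350, 178, 248 and 245 CPM, with both R882H libraries between the EV libraries and a log2 fold change of −0.10 ± 0.30. It was called higher, at 0.47 (adjusted p = 0.00706), when EV replicate 1 was left out, and lower, at −0.51 (adjusted p = 0.00247), when EV replicate 2 was, so its direction turned with the EV library used. It shares exon sequence with Gm21987, which held 1391, 763, 1013 and 978 counts. Sco1 stood at 15.4, 14.1, 12.7 and 13.0 CPM and Sco2 at 19.3, 17.8, 13.1 and 18.3 CPM, with log2 fold changes of −0.20 ± 0.21 and −0.25 ± 0.20.

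Genes were also grouped by cofactor, a grouping chosen after the values were seen. The 7 genes that bind or handle heme were Cox10, Cox15, Cyc1, Cycs, Sdhc, Sdhd and the cytochrome c heme lyase Hccs, which is not among the 106. They had 4 falls and 0 rises, with a median log2 fold change of −0.49. This is 57.1% called, against 38.8% of all tested genes, 19.3% higher and 19.4% lower. DESeq2 gave 3 falls and 0 rises, where it called 11% of its tested genes lower and 10.1% higher. At an unadjusted p under 0.05 there were 4 falls and 0 rises. With the mitochondrially encoded heme proteins mt-Cytb (log2 fold change 0.17 ± 0.16, not called) and mt-Co1 (which rose by 0.45 ± 0.15) added, the 9 genes had 4 falls and 1 rise and a median of −0.06, so the median depended on which heme genes were taken. Hccs stood at 33.6, 33.9, 24.1 and 23.9 CPM and fell by 0.49 ± 0.17 (adjusted p = 0.0184), a call that was lost without R882H replicate 1 (0.119), without R882H replicate 2 (0.121) and with DESeq2 (0.136). The 6 copper delivery genes (Cox11, Cox16, Cox17, Cox19, Sco1 and Sco2) had 0 calls by edgeR, 0 by DESeq2 and 0 at an unadjusted p under 0.05, and a median of −0.19, with values from −0.25 to 0.03. The 7 iron-sulphur subunits had 1 rise, Sdhb, and 1 fall, Ndufs8, and a median of −0.07. These groups were not compared by a test.

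**Figure D2:**
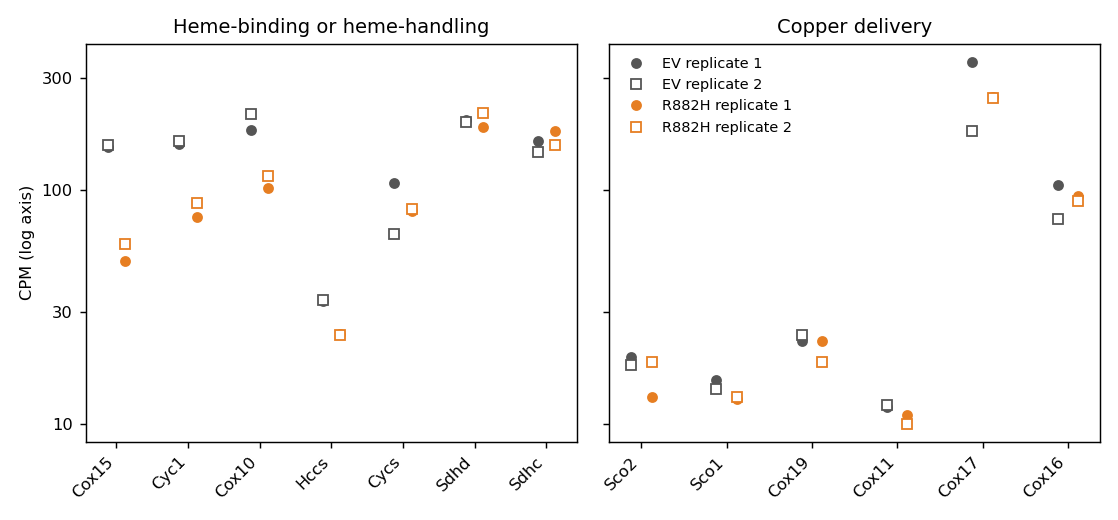
CPM (log y axis) of genes that bind or handle heme (left) and genes that deliver copper (right), with 1 symbol per library, circles for replicate 1, squares for replicate 2, grey for EV and orange for R882H. Cox15 stands at 151 and 155 CPM in EV and at 49.7 and 58.3 in R882H, while the EV libraries of Cox17 lie apart at 350 and 178 with R882H between them.

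Complex V, the ATP synthase, had 2 rises and 4 falls among 16 subunits, or 37.5% called against 38.8% of all tested genes. There were 5 and 5 without EV replicate 1, 0 and 5 without EV replicate 2 or with offsets by length, 0 and 1 without R882H replicate 1 and 0 and 3 without R882H replicate 2. Subunit c, which forms the rotor ring in the membrane, is encoded by 3 genes for the same mature protein. Atp5g3 (chr2:73908447-73911326), the respiratory chain gene with the highest CPM, stood at 1588, 1649, 975 and 1005 CPM and fell by 0.71 ± 0.14 on the log2 scale (adjusted p = 0.000128), with a range of −0.74 to −0.67 as libraries were left out. Atp5g1 (chr11:96068852-96075670) stood at 363, 347, 216 and 269 CPM and fell by 0.55 ± 0.14 (adjusted p = 0.00156), a call that was lost without R882H replicate 1 (0.165). Atp5g2 stood at 12.7, 13.9, 14.6 and 14.7 CPM (log2 fold change 0.14 ± 0.21) and was not called.

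Summed over the 3 genes, subunit c transcripts were 1963 and 2009 CPM in EV and 1205 and 1289 CPM in R882H. The share of Atp5g3 in that sum was 80.9% and 82.1% in EV and 80.9% and 78.0% in R882H, so the groups overlapped in the share while the sum was lower in both R882H libraries. Whether reads of these genes and of processed pseudogenes, here and for the other respiratory chain genes, were kept apart in the counting was not tested.

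In the F1 part, 2 of 5 genes fell and 0 rose, or 40% called against 38.8% of all tested genes. Atp5d and Atp5e, the delta and epsilon subunits of the central stalk, stood at 413, 475, 261 and 333 CPM and at 216, 193, 151 and 147 CPM. They fell by 0.58 ± 0.14 (adjusted p = 0.00121) and 0.46 ± 0.13 (adjusted p = 0.00555), with no overlap between groups. Both calls were lost without R882H replicate 1 (adjusted p = 0.153 and 0.0793), and that of Atp5e also without R882H replicate 2 (0.102). Atp5b, the catalytic beta subunit, stood at 1070, 1042, 842 and 840 CPM and did not pass the threshold (log2 fold change −0.33 ± 0.14, adjusted p = 0.0572), though it did with DESeq2 (adjusted p = 0.0233). Atp5d shares exon sequence with Cbarp, which was not called.

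The peripheral stalk and the small membrane subunits had 1 rise each and 0 falls, also 0 falls at an unadjusted p under 0.05 or with DESeq2. In each set 25% were called, against 38.8% of all tested genes. Atp5o, the oligomycin sensitivity protein at the top of the stalk, stood at 513, 441, 619 and 663 CPM and rose by 0.43 ± 0.14 (adjusted p = 0.0130). Atp5mpl, a small proteolipid of the membrane part, stood at 410.0, 309, 457 and 470 CPM and rose by 0.37 ± 0.14 (adjusted p = 0.0366). Both had their lowest library in EV replicate 2. Both calls were lost without EV replicate 2 (0.32 and 0.17 on the log2 scale) and without either R882H replicate. The 10 complex V subunits that were not called lay between −0.33 (Atp5b) and 0.31 (Atp5k), and the coupling factor Atp5s was at 0.25 ± 0.23.

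**Figure D3:**
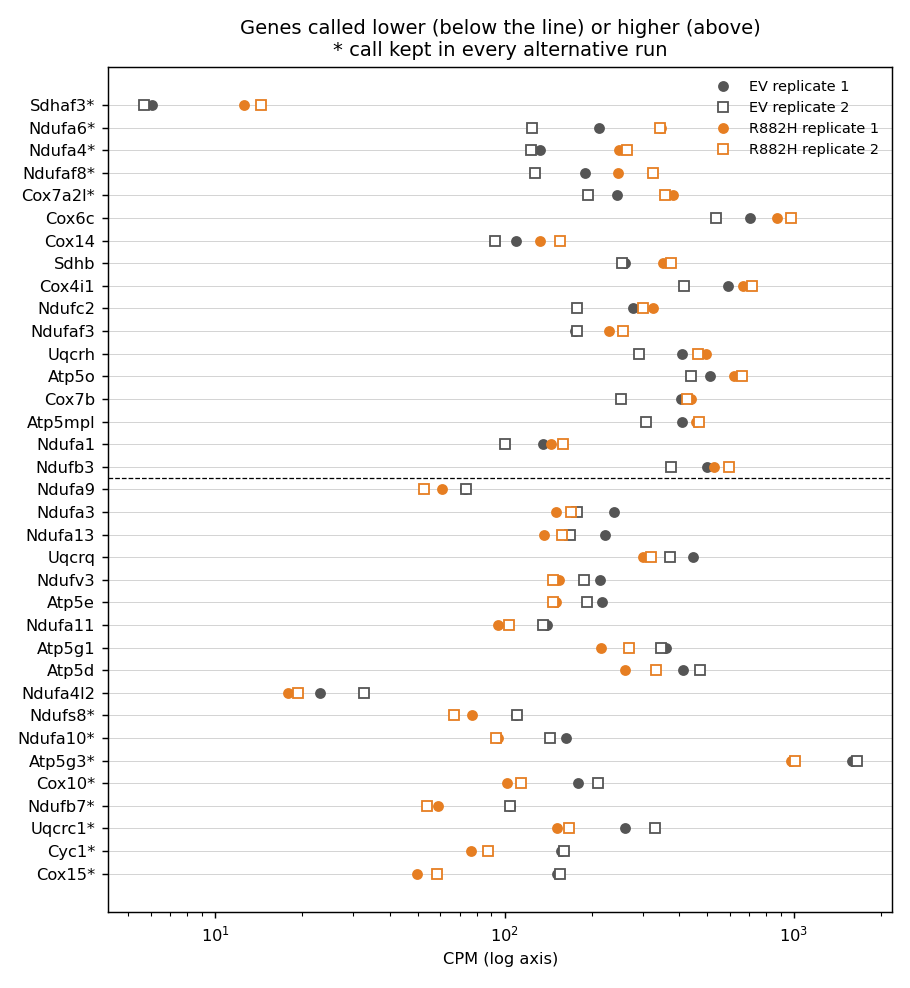
CPM (log x axis) of the 35 called respiratory chain genes (y axis) in each library, with circles for replicate 1, squares for replicate 2, grey for EV and orange for R882H, the 17 higher genes above the dashed line and the 18 lower ones below it. Asterisks mark the 5 rises and 8 falls whose call was kept in every refit that held the gene, and the grey square, EV replicate 2, lies lowest in 16 of the 17 rises.

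The EV libraries differed from each other across the respiratory chain genes. EV replicate 2 lay below EV replicate 1 for 87 of the 105 genes (82.9%), against 46.3% of all tested genes, with a median log2 difference of −0.22. It did so for 16 of the 17 genes that rose, 62 of the 70 that were not called and 9 of the 18 that fell, and the calls themselves use these EV values. R882H replicate 2 lay above R882H replicate 1 for 63.8% of the 105, against 49.3% of all tested genes. Without EV replicate 1, 29 respiratory chain genes were called higher and 16 lower, against 17.4% and 18.3% of tested genes; without EV replicate 2, 10 and 26 were, against 15.2% and 14.7%. Their median log2 fold change was 0.15 in the former case and −0.13 in the latter, so the balance of rises and falls turned with the EV library used.

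Transcript length moved with the difference between the EV libraries. Across the 105 genes, the longest annotated transcript and the log2 difference between the EV libraries had a Spearman rho of 0.36. Across 11429 tested genes with a length it was 0.18. Between the R882H libraries rho was −0.04 across the 105 genes and −0.17 across the tested genes. For the log2 fold change of R882H over EV it was −0.29 and −0.06. All points share the same libraries. Of the 50 tested respiratory chain genes with transcripts up to 1000 bases, 12 rose and 6 fell, with a median log2 fold change of 0.09, while of the 55 longer ones 5 rose and 12 fell, with a median of −0.07. Among all tested genes up to 1000 bases, 281 rose and 154 fell of 1055 (median 0.17), and among the longer ones 1928 rose and 2067 fell of 10374 (median 0.00). With offsets fitted within 10 bins of length, an alternative chosen after seeing the data, 12 respiratory chain genes were called higher and 24 lower, against 20.2% and 21% of tested genes, and the higher calls of Atp5mpl, Atp5o, Cox7b, Ndufa1 and Ndufb3 were lost. The cause of the difference between the EV libraries was not tested.

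**Figure D4:**
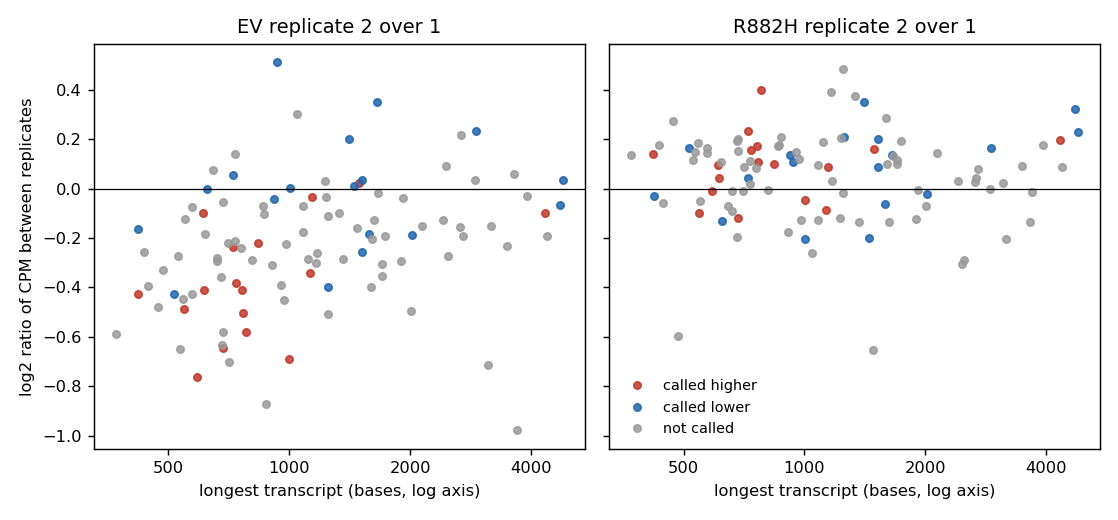
Log2 ratio of CPM of replicate 2 over replicate 1 (y axis) against the longest annotated transcript in bases (log x axis) for the 105 tested respiratory chain genes, EV left and R882H right, coloured by call. In the EV panel 87 of 105 points lie below 0 and genes up to 1000 bases tend to lie lowest, while in the R882H panel 67 of 105 lie above 0.

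Other genes needed for the same complexes also moved both ways. Of 33 further assembly factors, 32 were tested, 2 rose and 6 fell (25% called), against 0 and 4 with DESeq2, where Coa4, Cmc1, Pet100 and Hccs lost their calls. Tmem126a and Ecsit, which act on complex I, fell by 0.78 ± 0.18 and 0.74 ± 0.15 (adjusted p = 0.000785 and 0.000160), at 37.8, 28.1, 18.2 and 20.2 CPM and at 61.4, 58.2, 31.8 and 39.7 CPM. Uqcc2, an assembly factor of complex III, fell by 0.58 ± 0.14 (adjusted p = 0.00106), a call lost without R882H replicate 1 (0.0559). Lrpprc, which stabilises mitochondrial mRNAs, held 2269, 2365, 731 and 1362 counts and fell by 1.21 ± 0.28 (adjusted p = 0.0132), lost without EV replicate 1 (0.351) or 2 (0.424). The other calls were Hccs, given above, Pet100 at −0.37 (adjusted p = 0.0483), Coa4 at 0.63 (0.0403) and Cmc1 at 0.40 (0.0244), all lost without R882H replicate 1. Coa4, Cmc1 and Hccs were also lost without R882H replicate 2, Coa4 and Pet100 without EV replicate 1, and Coa4 and Cmc1 without EV replicate 2.

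Of 14 nuclear regulators, 13 were tested, 2 rose and 0 fell, with 0 falls at an unadjusted p under 0.05 and 0 calls by DESeq2. The share called was 15.4%, against 38.8% of all tested genes. Tfam, which packages and transcribes mitochondrial DNA, stood at 65.7, 49.2, 79.8 and 71.1 CPM (log2 0.39 ± 0.14, adjusted p = 0.0282), and Tfb1m at 7.52, 5.30, 12.2 and 8.43 CPM (0.69 ± 0.28, adjusted p = 0.0467). Both calls were lost without EV replicate 2, without R882H replicate 1 and with DESeq2. The genes of the factors whose letters were searched in the promoters were not called: Nrf1 was at −0.15 ± 0.14, Gabpa at 0.34 ± 0.17 and Yy1 at −0.09 ± 0.13. Gabpa shares exon sequence with the respiratory chain gene Atp5j, and of the called genes of these lists Ecsit, Hccs, Pet100 and Tfb1m also overlap a neighbour. Ppargc1a held 0 counts in all libraries, which allows up to 0.548 CPM.

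The mitochondrially encoded mRNAs of the same complexes made up 4.47% and 4.39% of counts in EV and 3.60% and 4.27% in R882H. Of 13, 12 were tested, 2 rose and 1 fell. mt-Nd5 of complex I rose by 0.47 ± 0.15 (adjusted p = 0.0111) and mt-Co1 of complex IV by 0.45 ± 0.15 (adjusted p = 0.0169). mt-Nd2 of complex I fell by 0.68 ± 0.14 (adjusted p = 0.000278). mt-Nd5 shares exon sequence with mt-Nd6, which held 15909, 13779, 10176 and 14064 counts (log2 fold change −0.36 ± 0.16, not called). mt-Co1 shares it with mt-Ts1 and mt-Nd2 with mt-Tw, and reads of such pairs may be shared. mt-Nd5 lost the call without EV replicate 2 (0.156) or R882H replicate 2 (0.131), mt-Co1 without either R882H replicate (0.160 and 0.0887) and mt-Nd2 without R882H replicate 1 (0.0552). The median log2 fold change of these mRNAs was 0.20, against 0.01 for the 105 nuclear-encoded genes, and the 2 sets were not compared by a test. That median weighs each mRNA alike, and mt-Nd3, mt-Co2 and mt-Co3 (0.31, 0.38 and 0.48) held at most 125 counts per library. Of the mRNAs with the most counts, mt-Nd4 and mt-Nd1 were at −0.43 and −0.12 and mt-Cytb and mt-Co1 at 0.17 and 0.45.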

How the data were processed

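Poly(A) RNA of 4 libraries, 2 per group, was measured by 3′ tag sequencing (QuantSeq). The authors deposited raw counts, 1 line per gene. The submitters' processing notes name HISAT2 2.0.4, featureCounts of Subread 2.0.0, cutadapt 1.14, bcl2fastq 2.17.1.14, limma 3.48.3, edgeR 3.34.0 and mm10. The roles of these tools, the annotation, strandedness and handling of multi-mapping reads: not given in the sources used here. Symbols, positions (1-based, GRCm38, the assembly of mm10) and transcript lengths come from GENCODE M21, and 52489 of 52636 identifiers matched. Exon overlap was taken on either strand with genes of at least 10 counts, so reads of such pairs may be shared.

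The members and lists were chosen with earlier results of these data known. The whole table was fitted in R 4.3.3 with edgeR 4.0.16: TMM scaling, filterByExpr, a robust quasi-likelihood fit on group and Benjamini-Hochberg adjustment, with a threshold of 0.05, after the script was tested on simulated data. A standard error is the absolute log2 fold change divided by the root of its F statistic. Named were all called members, the highest member of each class, paralogous subunits, Sdha to Sdhd, Cox10, Cox15, Cyc1 and Cycs; other names, and the grouping by role, cofactor, chromosome and length, were chosen after values were seen. Alternatives were DESeq2 size factors, library size alone, no low-count filter, a filter of 10 counts in all libraries of either group, non-robust dispersion, DESeq2 1.42.0, a replicate block, each library left out in turn (the lone library of a group being assumed to vary like the others), genes free of exon overlap, no minimum on members and a 1.5-fold requirement; offsets by transcript length were added after seeing the data.

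A count of 0 allows 3 counts, that is 0.507 to 0.548 CPM per library. The common biological coefficient of variation was 0.0957. Within-group chi-square per degree of freedom was 6.91 in EV and 4.61 in R882H, so libraries of a group differed by more than sampling noise.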

Additional observations from a re-analysis of the deposited data

How the results depend on the processing

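With a change of at least 1.5-fold also required, 5 members were called higher and 8 lower, in place of 17 and 18. Leaving out each library in turn gave 8 to 29 members called higher and 8 to 26 called lower; the former extreme came without R882H replicate 2 and without EV replicate 1, the latter without R882H replicate 1 and without EV replicate 2. The libraries share only the numbers 1 and 2 across groups, and deviations of same-numbered libraries correlated with r = −0.0026; with a replicate block 18 were called higher and 18 lower, and all 50 tested named genes kept their direction and side of the threshold. DESeq2 called 12 and 15, and 10.1% and 11% of the 12867 genes it tested, so it called fewer genes throughout. The tested members free of exon overlap held 12 and 12, against 19.6% and 19.9% of all such genes. With offsets by length, Atp5g2 turned to a log2 fold change of −0.019 and Cox6a1 to −0.087. Leaving out single libraries, values ran from −0.51 to 0.47 for Cox17, from −0.38 to 0.33 for Cycs and from −0.074 to 0.13 for Sdhd, which was at −0.00051 on library size alone. Of these turned values only that of Cox17 without EV replicate 1 was called. Of the 50, 41 were the same with DESeq2 and 9 lost their call, and 33 and 32 were the same without R882H replicate 1 and 2. With 2 libraries per group and 5470330 to 5921985 counts, calls near the threshold are readily lost when a library is left out, also where the fold is nearly as large (Atp5e −0.46 without R882H replicate 1). The cause of each was not tested.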

Other observations

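Of the 3 X-linked members, Ndufa1 and Cox7b were called higher and Ndufb11 had a log2 fold change of 0.21 with no call. The 102 tested autosomal members had 15 rises and 18 falls, and 19.3% of all tested genes were called higher. Both X-linked calls were lost with DESeq2, without EV replicate 2, without either R882H replicate and with offsets by transcript length. EV replicate 2 lay below EV replicate 1 in all 3 X-linked members. The Y-linked genes Eif2s3y and Uty held at most 1 count in an EV library and between 10 and 29 in an R882H library. The grouping by chromosome was chosen after the values were seen, and its part in the results was not tested.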
